A study of Mus musculus with 12 samples.

Results

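The genes described here code for the heat shock proteins and their J-domain partners in the medial prefrontal cortex. They are all genes whose single platform symbol begins with Hspa, Hspb and a digit, Hsph, Hsp90, Hspd, Hspe or Dnaj. The rule found 70 of the 18193 genes with 1 symbol on the array, measured by 169 probe sets, and the probe set with the highest mean over all arrays stood for a gene. Of the 70, 59 passed a filter on dim probe sets and were tested among 12323 genes.

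The study profiled this tissue on 12 Affymetrix arrays, in adult male mice obtained at 12 weeks and then habituated to the facility. It asked which effects of ethanol and which basal levels depend on the kinase Fyn. Mice without Fyn (B6;129S7-Fyntm1Sor/J) were set against B6129SF2/J controls, a separate stock, so that loss of Fyn and difference of stock cannot be told apart. After 3 days of saline injections for habituation, animals of either genotype were given ethanol intraperitoneally at 3 g/kg (20% v/v), or saline again, and were killed 4 hours later. Each combination of genotype and treatment had 3 arrays, every one with RNA pooled from 3 mice. The labels do not say more of how pools were formed, so p-values measure the spread between pools. Replicate numbers in the labels reach 4, and no source used here says whether further pools existed. Labels and paper differ on the number of mice per genotype, which was not settled. Values are log2 RMA signals, and a difference of 1 is a doubling.

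Chaperones bind unfolded stretches of other proteins and keep them from clumping until they fold. HSP70 proteins bind and release their clients in a cycle driven by ATP, in which J-domain proteins deliver the client and speed up hydrolysis, and HSP110 proteins exchange the nucleotide. Small heat shock proteins hold unfolded clients without ATP, HSP90 finishes the folding of kinases and steroid receptors, and the chaperonin of HSP60 and HSP10 folds proteins inside mitochondria. In neurons J-domain proteins also serve the clathrin and synaptic vesicle cycle. Stress raises many of these genes through the heat shock factors, which bind repeated GAA units, and the chaperones of the endoplasmic reticulum (ER) through the ER stress element.

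Promoter sequence was available for 57 of the 70 genes (RefSeq, GRCm38.p6), and the 250 bases before each start site were searched on both strands. A pair of inverted GAA units, GAANNTTC, was found in 11 of the 57 (19.3%) and in 7.73% of 27025 genes. The pair in the other orientation, TTCNNGAA, was found in 6 (10.5%) against 8.11%. A run of 3 such units, alternating in direction with 2 bases between them and so holding both pairs, was found in Dnajb6, Hspd1 and Hspe1 (5.26%) against 0.514%. These are counts of genes and not of separate sequences. Hspd1 and Hspe1 share the stretch that holds their motifs, and the near-identical promoters of Hspa1a and Hspa1b hold the same pair at -104. The ER stress element, CCAAT and CCACG with 9 bases between them, was found in Dnajc3, Hsp90b1 and Hspa5 (5.26%) against 0.13%. The lines that follow show promoters of a small heat shock protein and an HSP110 gene that fell after ethanol (Hspb1, Hsph1), of an inducible HSP70 and the mitochondrial HSP10 that did not pass the test (Hspa1b, Hspe1), and of the main ER HSP70 (Hspa5). Each is given 5′ to 3′ on the strand of the gene, ends at the base before the start site, and has the motif in capitals.
Hspb1, chr5:135887669-135887918, plus strand: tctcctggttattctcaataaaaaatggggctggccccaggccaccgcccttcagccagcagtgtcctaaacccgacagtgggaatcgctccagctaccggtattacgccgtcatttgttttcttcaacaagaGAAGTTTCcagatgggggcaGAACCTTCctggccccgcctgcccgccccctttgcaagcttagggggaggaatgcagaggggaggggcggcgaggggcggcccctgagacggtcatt
Hsph1, chr5:149636316-149636565, minus strand: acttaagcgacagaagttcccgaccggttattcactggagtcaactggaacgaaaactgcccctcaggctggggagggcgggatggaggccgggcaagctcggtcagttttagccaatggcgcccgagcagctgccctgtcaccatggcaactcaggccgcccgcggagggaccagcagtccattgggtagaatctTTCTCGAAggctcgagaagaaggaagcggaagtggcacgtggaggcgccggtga
Hspa1b, chr17:34959239-34959488, minus strand: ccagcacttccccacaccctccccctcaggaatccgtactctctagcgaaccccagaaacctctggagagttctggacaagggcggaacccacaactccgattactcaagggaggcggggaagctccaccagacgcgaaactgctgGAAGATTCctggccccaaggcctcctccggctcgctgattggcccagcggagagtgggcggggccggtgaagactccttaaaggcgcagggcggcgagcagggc
Hspe1, chr1:55087898-55088147, plus strand: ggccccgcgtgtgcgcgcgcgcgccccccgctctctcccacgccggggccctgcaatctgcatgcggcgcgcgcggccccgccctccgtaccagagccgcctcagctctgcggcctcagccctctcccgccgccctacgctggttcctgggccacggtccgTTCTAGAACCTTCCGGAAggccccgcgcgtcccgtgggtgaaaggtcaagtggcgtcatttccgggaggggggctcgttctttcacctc
Hspa5, chr2:34771840-34772089, plus strand: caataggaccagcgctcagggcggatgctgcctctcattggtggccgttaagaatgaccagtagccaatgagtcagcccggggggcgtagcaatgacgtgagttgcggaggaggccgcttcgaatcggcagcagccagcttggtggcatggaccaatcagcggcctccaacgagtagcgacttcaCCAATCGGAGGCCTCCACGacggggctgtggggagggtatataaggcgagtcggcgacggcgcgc

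Hspb1 held 2 pairs of GAA units, which began at -117 and -97 from the start site. In Hsph1 the pair began at -54. The 3 overlapping pairs of Hspe1 began between -89 and -79, in sequence that also lies before the start of Hspd1 on the other strand. Of the 7 genes called for ethanol (described next), Hspb1 and Hsph1 held a heat shock motif in this window, and Dnajb11, Dnajc1, Dnajc16, Dnajc21 and Hspa4 held none of these letters. A match is a description of the sequence and not a binding site.

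Correlations between arrays were 0.982 to 0.997. Mean signals over the 8 neuron markers were 11.3 to 11.6 and over the 6 astrocyte markers 10.1 to 10.4. Fyn, by its brighter probe set, was 9.31, 8.74 and 9.65 in control saline replicates 1 to 3, 9.70, 9.45 and 9.33 in control ethanol, 8.89, 8.64 and 9.45 in Fyn-null saline replicates 2 to 4 and 9.01, 8.75 and 8.77 in Fyn-null ethanol. Among saline pools, replicate 2 labelled control and replicate 4 labelled Fyn-null thus stood with the other genotype, and the ethanol results and the counts of every comparison are also given without both. No source used here says whether these probes lie within the disrupted exons. Signs of RNA quality moved with treatment. The 3′ minus 5′ difference of the Actb control probe sets was 0.706 to 1.15 in ethanol pools and 0.977 to 1.45 in saline pools, and that of Gapdh -0.045 to 0.105 and 0.106 to 0.529, without overlap.

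Ethanol lowered 6 chaperone genes and raised 1 over both genotypes. Hspb1, a small heat shock protein, fell by 0.63 on the log2 scale (1.54-fold lower), the HSP110 genes Hspa4 and Hsph1 fell by 0.27 and 0.29, and the ER co-chaperones Dnajc1 and Dnajb11 fell by 0.40 and 0.24. Dnajc21, whose protein acts in making the large ribosomal subunit, fell by 0.47, and Dnajc16 rose by 0.26. Together 7 of 59 genes (11.9%) passed an adjusted p of 0.05 (limma, 6 pools against 6), against 6.69% of all genes tested. Lower calls were 6 (10.2% against 4.8% of all genes) and higher calls 1 (1.69% against 1.89%). At an unadjusted p under 0.05 there were 19 (32.2% against 23.7%). The median difference was -0.067 over the 59 genes and -0.038 over all genes, and 20 of the 59 (33.9%) were above 0 against 37.5% of all genes. Without both saline pools in doubt 8 genes passed (5.32% of all genes). Dnajb11 no longer did (-0.25, adjusted p = 0.0595), Hspa5 and Hspa4l were added (-0.28 and -0.25, adjusted p = 0.0371 and 0.0468), and the other 6 remained. With the Actb measure as a covariate only Hspb1 passed (-0.76, SE 0.13, adjusted p = 0.0464), as did 23 of all genes (0.187%); Hspa4 was at -0.28 (adjusted p = 0.36), Dnajc21 at -0.32 (0.495) and Hsph1 at -0.20 (0.667). In tissue RNA, fewer cells of a type and less RNA per cell cannot be told apart.

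**Figure D1:**
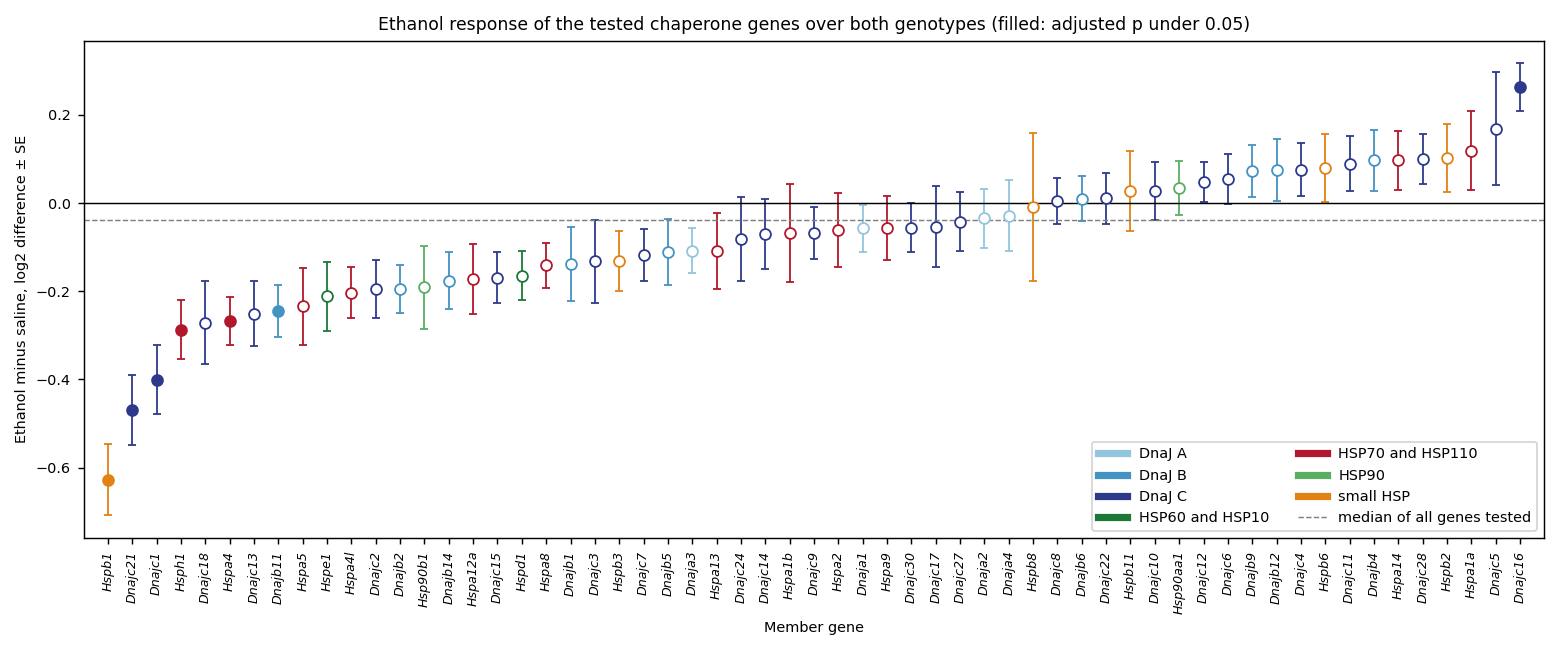
Ethanol minus saline over both genotypes for the 59 tested chaperone genes, as log2 difference (vertical axis) with its standard error, ordered by size along the horizontal axis and coloured by family; filled points have an adjusted p under 0.05 and the dashed line is the median of all genes tested (-0.038). The 6 filled points at the left run from -0.63 (Hspb1) to -0.24 (Dnajb11), and 1 filled point, Dnajc16 at 0.26, stands at the right end.

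Hspb1 had the largest difference of the 59 genes. It was 8.68, 8.29 and 8.27 in control saline, 7.83, 7.73 and 7.72 in control ethanol, 8.26, 8.41 and 8.52 in Fyn-null saline and 7.78, 7.66 and 7.95 in Fyn-null ethanol. Every ethanol pool was below every saline pool. The difference was -0.63 (SE 0.081, adjusted p = 0.00103) and was past the threshold under all 21 alternatives, over which it ranged from -0.76 to -0.57. Its second probe set was at -0.61 (adjusted p = 0.00898). No other small heat shock protein passed the test. Hspb8, which works with Bag3 in clearing aggregates, was at -0.0092 (SE 0.17), Hspb3 at -0.13, Hspb6 at 0.079 and Hspb2 at 0.10, with 0 of these 4 past the threshold, and Hspb7 and Hspb9 were too dim to test.

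The HSP110 genes code for the nucleotide exchange factors of HSP70. Hspa4 was 10.05, 9.93 and 9.92 in control saline, 9.66, 9.59 and 9.63 in control ethanol, 9.99, 10.07 and 10.00 in Fyn-null saline and 9.90, 9.73 and 9.83 in Fyn-null ethanol. Its ethanol and saline pools did not overlap over the 2 genotypes together, and control ethanol pools were the lowest (difference -0.27, SE 0.054, adjusted p = 0.0131). Hsph1 was 11.01, 10.83 and 11.09 in control saline, 10.65, 10.59 and 10.72 in control ethanol, 10.83, 10.88 and 11.05 in Fyn-null saline and 10.72, 10.52 and 10.77 in Fyn-null ethanol. Here too the highest ethanol pool was below the lowest saline pool (-0.29, SE 0.067, adjusted p = 0.0244). Hspa4l, the third gene of the kind, was at -0.20 (adjusted p = 0.0521), so that all 3 HSP110 genes were below 0 with 2 past the threshold. Over all genes 37.5% were above 0 and 4.8% were called lower. For Hspa4 the other 3 tested probe sets were at 0.14, -0.16 and 0.32, none past the threshold. The mean of all its probe sets was 0.0087 (adjusted p = 0.961), so the fall of Hspa4 rests on its brightest probe set. Both probe sets of Hsph1 were below 0 (the second at -0.25, adjusted p = 0.154).

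A group of 8 members was read as ER genes by role. It left out Dnajc16, called higher (0.26), and Dnajb12, and need not hold every ER member. Means of Dnajb12 under saline and ethanol were 7.52 and 7.66 in control mice and 7.49 and 7.50 in Fyn-null mice. The counts and median of the group depend on which members it holds. In this group 2 were above 0 and 6 below, while 37.5% of all genes were above 0. The test was passed by 2, both lower, against 4.8% of all genes. The median was -0.16, against -0.038 over all genes. Dnajc1 codes for a J protein of the ER membrane and Dnajb11 for a soluble one of the lumen, both partners of the HSP70 Hspa5 (BiP). Dnajc1 was 7.34, 7.42 and 7.58 in control saline, 6.96, 7.08 and 6.90 in control ethanol, 7.27, 7.49 and 7.59 in Fyn-null saline and 7.26, 6.93 and 7.16 in Fyn-null ethanol. The groups stood apart by treatment with a narrow gap in Fyn-null mice (-0.40, SE 0.078, adjusted p = 0.0109). Of its 4 other tested probe sets, 1 fell as well (-0.51, adjusted p = 0.00908) and 3 were at 0.062, 0.19 and 0.33. The mean of all 5 was -0.067 (SE 0.087, adjusted p = 0.679), so this call too rests on the choice of probe set. Dnajb11 was 8.90, 8.80 and 8.97 in control saline, 8.51, 8.69 and 8.61 in control ethanol, 8.68, 8.88 and 8.89 in Fyn-null saline and 8.65, 8.54 and 8.63 in Fyn-null ethanol. Treatments did not overlap within a genotype but did between them (-0.24, SE 0.059, adjusted p = 0.0294). Dnajb11 was the least stable of the 7, past the threshold in 11 of 21 alternatives. Hspa5 itself was at -0.23 (SE 0.087, adjusted p = 0.118) and the ER HSP90, Hsp90b1, at -0.19 (adjusted p = 0.236). The dimmer probe set of Hsp90b1 leaned the other way, with overlap and without a call. It was 9.03, 8.35 and 8.55 in control saline and 9.12, 8.77 and 9.19 in control ethanol. In Fyn-null mice it was 8.70, 8.27 and 8.15 under saline and 8.66, 8.48 and 8.45 under ethanol. Dnajb9, another stress-induced J protein of the lumen, was at 0.073 and Dnajc10 at 0.028.

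Dnajc21 was 8.80, 8.50 and 8.80 in control saline, 8.20, 8.31 and 8.31 in control ethanol, 8.64, 8.80 and 8.63 in Fyn-null saline and 8.29, 7.93 and 8.31 in Fyn-null ethanol. All ethanol pools were below all saline pools, and the lowest was Fyn-null ethanol replicate 2 (-0.47, SE 0.080, adjusted p = 0.00532). Its other 2 tested probe sets were below 0 as well (-0.14 and -0.19, neither past the threshold). Dnajc16, a J-domain protein of class C, went the other way. It was 7.05, 7.26 and 7.21 in control saline, 7.39, 7.47 and 7.46 in control ethanol, 7.11, 7.23 and 7.28 in Fyn-null saline and 7.45, 7.49 and 7.47 in Fyn-null ethanol. Every ethanol pool was above every saline pool (0.26, SE 0.054, adjusted p = 0.0138), although its second probe set was at 0.020. The mean of both was 0.14 (SE 0.046, adjusted p = 0.0674), which ends the one higher call.

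**Figure D2:**
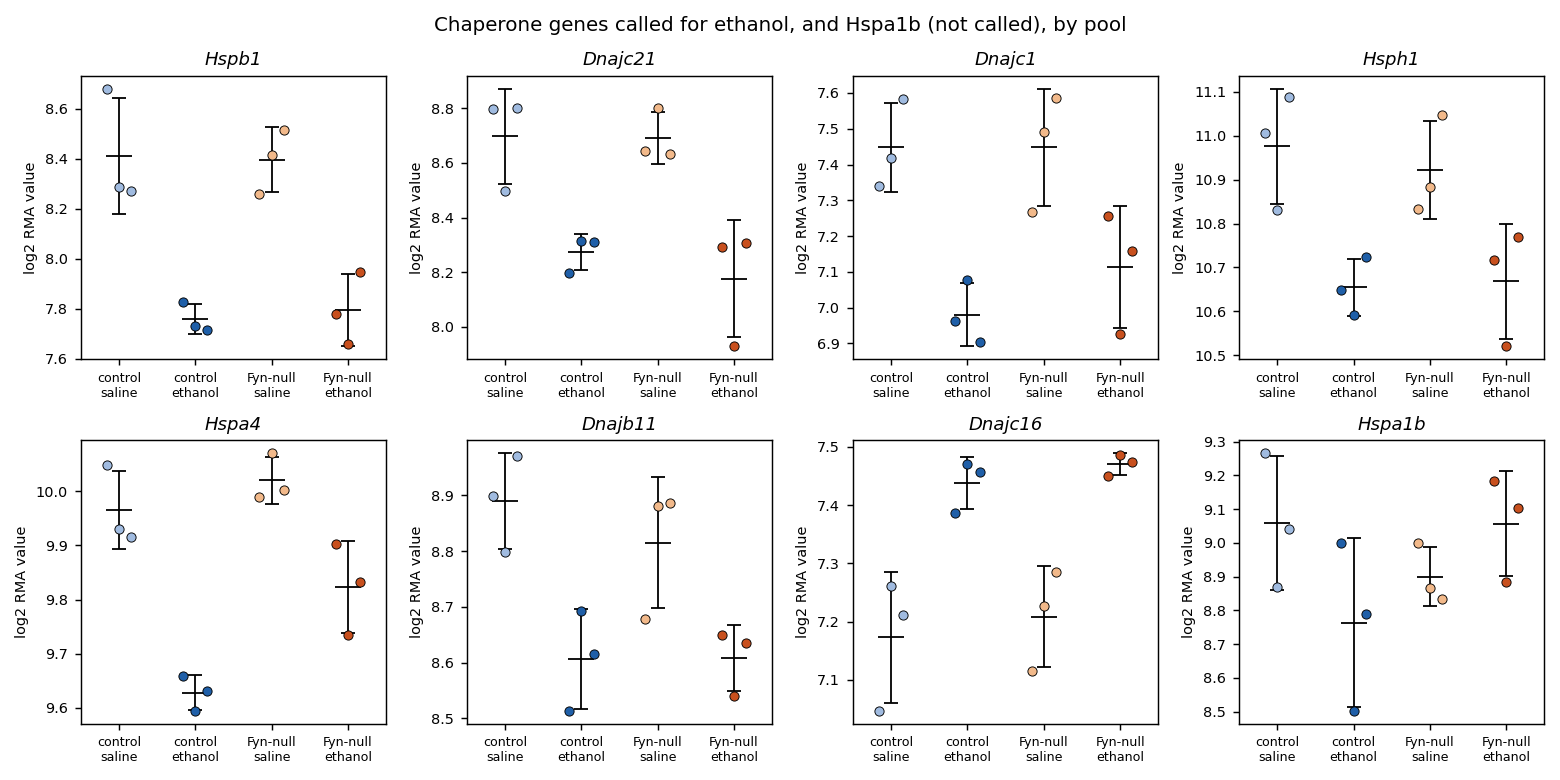
Log2 RMA value (vertical axes, which do not start at 0) of the 7 called genes and of Hspa1b, an inducible HSP70 that was not called, in each pool of the 4 groups; bars are the group mean and SD (n = 3). In 6 panels both ethanol groups lie below their saline groups, in Dnajc16 above them, and in Hspa1b the groups overlap.

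Ethanol and saline pools stood apart in the same direction in both genotypes for 8 lower genes (13.6% of the 59, against 5.38% of all genes) and 1 higher gene (1.69% against 1.92%). These were the 7 called genes with Dnajb2, a J protein abundant in neurons (-0.19, SE 0.055, adjusted p = 0.0504) and Hspa4l. Over the 2 genotypes together, 5 genes were lower in every ethanol pool (8.47% against 3.17%) and 1 higher (1.69% against 1.38%). Just outside the threshold were Dnajb2, Hspa4l and Dnajc13, an endosomal J protein (-0.25, adjusted p = 0.0564).

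The inducible HSP70 genes and the constitutive HSP70 Hspa8 did not pass the test by their brightest probe sets. Neither did Hsp90aa1, the only cytosolic HSP90 gene among the members. Hspa1b, an inducible HSP70, was 9.27, 8.87 and 9.04 in control saline, 9.00, 8.50 and 8.79 in control ethanol, 9.00, 8.87 and 8.83 in Fyn-null saline and 9.18, 8.88 and 9.10 in Fyn-null ethanol. Hspa1a, its near-identical neighbour, was 7.43, 7.16 and 7.25, then 7.51, 6.98 and 7.28, then 7.17, 7.15 and 7.16, and 7.48, 7.36 and 7.42 in the same order of groups. Ethanol differences were -0.069 (SE 0.11, adjusted p = 0.747) for Hspa1b and 0.12 (SE 0.089, adjusted p = 0.45) for Hspa1a, and probes of this pair may share signal. Hspa8, the constitutive HSP70 and the member with the brightest probe set (mean 12.9), was at -0.14 (SE 0.052, adjusted p = 0.112). Hsp90aa1, the inducible cytosolic HSP90 (12.3), was at 0.034 (SE 0.062). Its next brightest probe set, not called, was 11.95, 11.77 and 12.00 in control saline and 12.20, 12.01 and 12.26 in control ethanol. In Fyn-null mice that probe set overlapped (11.98, 11.74 and 11.48 under saline, 12.00, 11.83 and 11.78 under ethanol). Dnajb1, the main heat-induced J protein of the cytosol, was at -0.14 (adjusted p = 0.34). Its dimmer probe set, not called, was 8.28, 8.34 and 8.40 in Fyn-null saline and 8.53, 8.42 and 8.54 in Fyn-null ethanol. In control mice it overlapped (8.69, 8.36 and 8.37 under saline, 8.52, 8.52 and 8.70 under ethanol). All 4 J proteins of class A were slightly below 0 (-0.11 to -0.029) and 0 passed, while 37.5% of all genes were above 0.

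Of the 8 mitochondrial genes 2 were above 0 and 6 below, while 37.5% of all genes were above 0. Their median was -0.083 against -0.038, and 0 passed, against 6.69% of all genes. Hspd1 (HSP60) was at -0.16 (SE 0.056, adjusted p = 0.0904), its partner Hspe1 (HSP10) at -0.21 (SE 0.079, adjusted p = 0.117) and Dnajc15, of the inner membrane, at -0.17 (adjusted p = 0.0898). Of the 3 tested genes of the vesicle cycle 0 passed. Dnajc6 (auxilin, which with Hspa8 strips clathrin from vesicles) was at 0.054 and Dnajc5 (cysteine string protein of synaptic vesicles) at 0.17 (SE 0.13). By signal, Hspa8, Hsp90aa1, Hspa5, Dnajc6 and Dnaja2 had the brightest probe sets (means 10.9 to 12.9) and Dnajb7, Hspb9, Hspa1l, Dnajb3 and Dnajc5b the dimmest (2.40 to 3.85), which orders probe sets and not transcripts. The 11 genes below the filter (means 2.40 to 5.11) also included Dnajb8, Dnajb13, Dnajc5g, Dnajc25, Hspa12b and Hspb7.

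Probe sets of 1 gene were also compared, and the examples here were chosen after their values were seen. Of the 39 genes with several tested probe sets, 11 had all of them on the same side of 0 and 28 (71.8%) did not, against 52.2% of the 5425 genes with several, not matched for how many each has. Of 135 tested probe sets 16 passed for ethanol over both genotypes (11.9%, against 6.81% of all 24770 probe sets). Of these 12 were lower and 4 higher (4.22% and 2.58% of all probe sets), and 9 were not the probe set that stood for the gene. A dim probe set of Hspa8 fell by 1.01 (SE 0.18, adjusted p = 0.00763), from 7.11 to 8.17 in the saline pools to 5.85 to 6.88 in the ethanol pools, whereas the 3 brighter ones were at -0.18, -0.14 and -0.099. Dnajc5 had 1 probe set that rose (0.58, adjusted p = 0.0158) and 1 that fell (-0.22, adjusted p = 0.0474). Dnajc18 and Dnajc27 had probe sets that rose (0.26 and 0.41, adjusted p = 0.0259 and 0.0437) beside brighter ones at -0.27 and -0.042. Dnajc6 and Hspa4l had dimmer probe sets that fell (-0.42 and -0.38, adjusted p = 0.0338 and 0.0357). When both pools in doubt were left out, 14 probe sets passed (10.4% against 5.28%), 12 of them the same, and those of Dnajb11, Dnajc18, Dnajc27 and the lower one of Dnajc5 lost their calls (adjusted p = 0.0595, 0.059, 0.0838 and 0.131). Which transcripts each probe set reads was not tested.

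**Figure D3:**
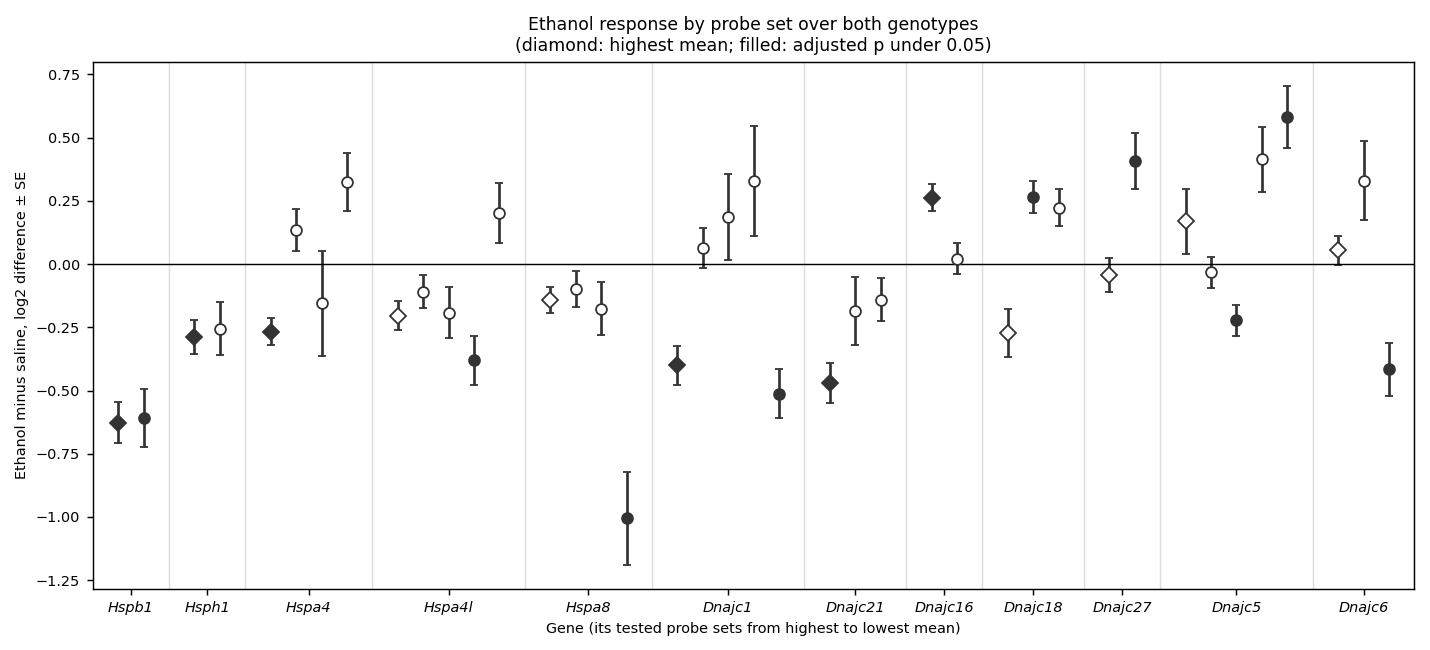
Ethanol minus saline over both genotypes (log2 difference with its standard error) for each tested probe set of 12 chaperone genes, ordered within a gene from the highest to the lowest mean; diamonds stand for the gene and filled points have an adjusted p under 0.05. Hspb1 and Hsph1 lie below 0 throughout, while Hspa4, Dnajc1, Dnajc5 and Dnajc18 have probe sets on both sides of 0.

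Within control mice, 2 of the 59 genes (3.39%) passed, against 1.45% of all genes, and both were lower (0.998% of all genes). Hspb1 was at -0.65 (SE 0.12, adjusted p = 0.0234) and Hspa4 at -0.34 (SE 0.074, adjusted p = 0.0476). Dnajc1 (-0.47, adjusted p = 0.0612), Dnajc21 (-0.42, 0.09) and Dnajc16 (0.26, 0.112) came next. Ethanol pools were wholly below saline pools in 17 genes (28.8%, against 19.3% of all genes) and wholly above in 2 (3.39% against 5.36%). The median was -0.14 over the 59 genes and -0.060 over all genes, and 18 (30.5%) were above 0 against 34.3% of all genes. At an unadjusted p under 0.05 there were 16 (27.1% against 18%). Without both pools in doubt Hspb1 alone passed, Hspa4 being at -0.36 (adjusted p = 0.0959), and with the Actb covariate 0 passed. Hspb1 lost the call without control ethanol replicate 1 (adjusted p = 0.0639), control ethanol replicate 2 (0.0753) or control saline replicate 1 (0.054), and Hspa4 kept it in 1 of 12 fits that left out a pool.

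Within Fyn-null mice, 0 of the 59 passed (limma; 10, or 16.9%, at an unadjusted p under 0.05 against 11.8% of all genes), and 0.511% of all genes passed. Hspb1 was at -0.60 (SE 0.12, adjusted p = 0.0574), Dnajc21 at -0.52 (0.0935), Dnajc16 at 0.26 (0.221), Dnajc1 at -0.33 (0.266) and Hspa4 at -0.20 (0.321). Ethanol pools were wholly below saline pools in 13 genes (22% against 11.4%) and wholly above in 4 (6.78% against 7.13%), among them Hspa1a (0.26, adjusted p = 0.424). The median was -0.017 over the 59 genes and -0.021 over all genes, and 27 (45.8%) were above 0 against 43.6%. Without both pools in doubt the count was again 0, with no share of all genes set beside it. With arrayWeights, which did not converge for some probe sets, 8 passed (1 higher and 7 lower) together with 10.8% of all genes.

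The difference between the responses of the genotypes passed an adjusted p of 0.05 for 0 of the 59 genes (limma; 0% of all genes). At an unadjusted p under 0.05 there were 2 (3.39%, against 3.85% of all genes). Of the 59 genes 29 were below 0 in both genotypes, 15 above 0 in both, 12 below 0 in control and above 0 in Fyn-null mice and 3 the reverse. The Fyn-null response was the more positive in 39 (66.1%), against 62% of all genes. The differences with the smallest p were those of Dnajc17, linked to splicing (0.40, SE 0.16), Hspa1b (0.45, SE 0.19), Hspa13, an ER HSP70 (0.29, SE 0.16), Dnajc3, an ER J protein (0.31, SE 0.17), and Hspb8 (0.54, SE 0.31), each with an adjusted p of 0.992. For the 7 called genes the difference of responses was between -0.093 (Dnajc21, SE 0.165) and 0.14 (Hspa4, SE 0.105), each under 2 of its standard errors. Without both pools in doubt 0 passed.

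**Figure D4:**
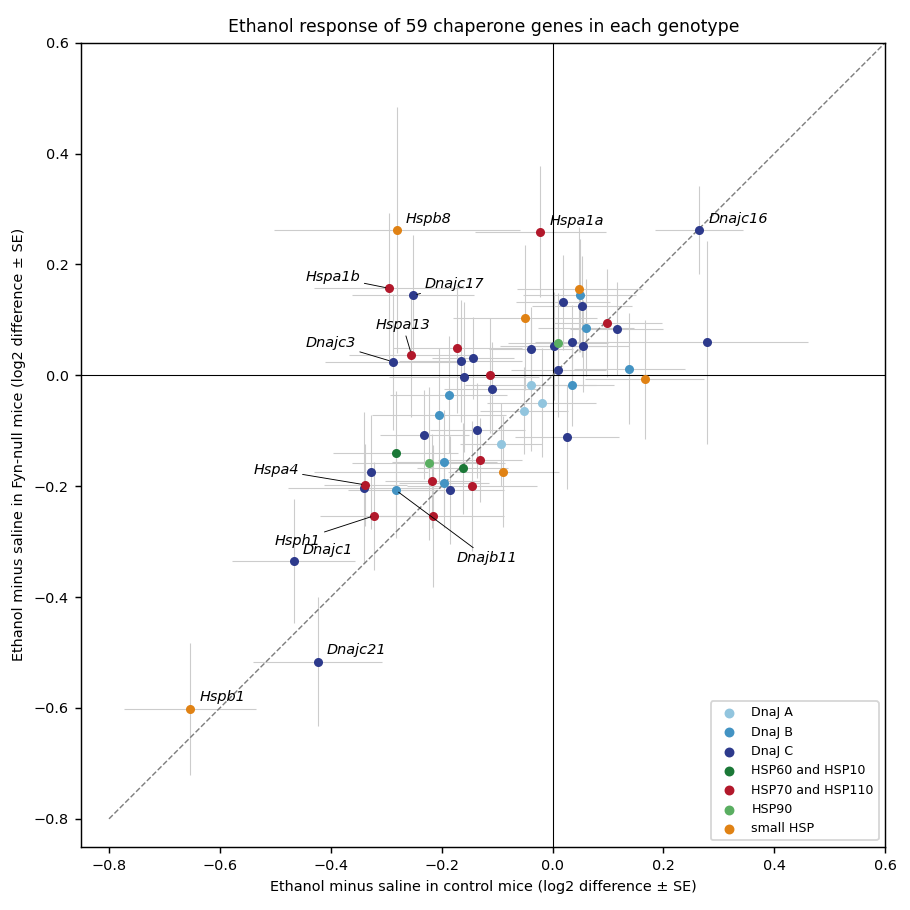
Ethanol minus saline in control mice (horizontal axis) against that in Fyn-null mice (vertical axis) for the 59 tested genes, as log2 differences with standard errors and coloured by family; the dashed line marks equal responses. Hspb1 and Dnajc21 lie at the lower left and Dnajc16 at the upper right near that line, and Hspb8, Hspa1b and Dnajc17 lie left of 0 and above 0.

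No chaperone gene was called between Fyn-null and control mice. Under saline 0 of the 59 genes passed (limma; 0% of all genes), 1 had an unadjusted p under 0.05 (1.69% against 1.49%), and 0 had groups that did not overlap (3.27% of all genes higher and 2.02% lower). Levels were higher in Fyn-null mice for 27 (45.8% against 53.4%). Hsp90aa1 had the smallest p (-0.21, SE 0.090, adjusted p = 1.00), before Hspb3 (0.19), Dnajc17 (-0.16), Hspa1b (-0.16) and Dnajb2 (0.092). Without both pools in doubt 0 passed.

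Under ethanol 0 passed as well (0% of all genes), with 8 at an unadjusted p under 0.05 (13.6% against 12.9%). Hspb8 was 6.33, 5.68 and 5.55 in control ethanol and 6.53, 6.35 and 6.79 in Fyn-null ethanol, against 5.67, 6.49 and 6.25 in control saline and 6.41, 6.28 and 6.20 in Fyn-null saline. The ethanol groups stood apart, while the 3 control saline pools alone spread more widely than that difference (0.70, SE 0.22, adjusted p = 0.206). Dnajc3 (0.37, adjusted p = 0.221), Hspa4 (0.20, 0.276), Hspa13 (0.29, 0.283) and Dnajc30, a mitochondrial J protein (0.18, 0.307) followed. Fyn-null pools were wholly above control pools in 9 genes (15.3% against 16% of all genes) and wholly below in 2 (3.39% against 4.94%), and 41 differences (69.5%) were above 0 against 63%. With arrayWeights 10 passed (9 higher and 1 lower) together with 15.2% of all genes. Over both treatments 0 passed (0% of all genes, and 7 or 11.9% at an unadjusted p under 0.05 against 9.89%), with Hsp90aa1 at -0.19 (SE 0.062, adjusted p = 0.341), Hspb8 at 0.43 (0.386), Hspa4 and Dnajc15 at 0.13 each (0.426 and 0.431) and Dnajc3 at 0.21 (0.44). Here 38 differences (64.4%) were above 0 against 62.1%, and 0 genes had groups that did not overlap (0.276% of all genes higher and 0.0487% lower). Without both pools in doubt 0 passed in either comparison. Shares of all genes are not given for the fits without these pools, here, under saline or for the difference of responses. These counts of 0 cannot be read as particular to chaperones. Dnajb12, Dnajc12, Dnajc14 and Hsp90b1 share chromosome 10 with Fyn, at distances of 20.3, 23.8, 89.2 and 47.1 Mb.

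Partner genes were read from the gene lists. Over all genes 4.8% fell, 1.89% rose and 37.5% were above 0, with a median of -0.038. Of 25 tested heat shock factors and cytosolic co-chaperones, 2 rose and 2 fell after ethanol over both genotypes (median -0.035). Hsf4 was the only heat shock factor among them (0.046, not called), and Hsf2 was too dim to test (mean 4.39). Fkbp5, an HSP90 co-chaperone induced by glucocorticoids, rose from 7.36 to 7.91 in the saline pools to 8.87 to 9.21 in the ethanol pools (1.36, SE 0.093, adjusted p = 4.5e-06). Bag5, a nucleotide exchange factor, rose by 0.17 (adjusted p = 0.0415). Chordc1, an HSP90 co-chaperone, fell from 8.97 to 9.44 in saline pools to 8.48 to 8.74 in ethanol pools (-0.55, SE 0.078, adjusted p = 0.00176). Stip1, which links HSP70 to HSP90, fell by 0.22 (adjusted p = 0.0474). Of 24 tested genes of ER chaperones and the unfolded protein response, 4 fell and 0 rose (median -0.11). These were Creld2 (-0.52, adjusted p = 0.0042), Manf (-0.38, 0.0146), Sel1l (-0.28, 0.0428) and Sdf2l1 (-0.32, 0.0473), of which Creld2, Manf and Sdf2l1 are induced by ER stress and Sel1l serves ER-associated degradation. All 14 genes of the CCT chaperonin and prefoldin were below 0 (median -0.084) and 1 passed, Cct7 (-0.20, adjusted p = 0.0454). All 11 genes of mitochondrial import and proteases were below 0 (median -0.12), 0 of them past the threshold. Of the temperature-linked RNA binding genes, Cirbp, which is induced by cold, rose by 0.44 (SE 0.10, adjusted p = 0.0274), and Srsf5 was at 0.28 (adjusted p = 0.113). In the fit without both pools in doubt, Fkbp5 (1.32), Chordc1 (-0.54), Stip1 (-0.26), Creld2 (-0.51), Manf (-0.43) and Cirbp (0.49) kept their calls. Bag5, Sel1l, Sdf2l1 and Cct7 lost theirs (adjusted p = 0.097, 0.0891, 0.127 and 0.104), and Pdia6, a disulfide isomerase of the ER, was added (-0.30, adjusted p = 0.0436). Gene by gene, the fits with the Actb covariate and with the mean of all probe sets were read for members only. Calls of partner genes and of the markers below were not checked in those fits.

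Markers of cell types were set beside these differences. All 7 endothelial and mural markers were below 0 after ethanol and 4 fell (Cldn5 -0.64, Slco1a4 -0.57, Flt1 -0.41 and Rgs5 -0.33). Their mean signal was 8.01 to 8.14 in control saline, 7.58 to 7.65 in control ethanol, 8.06 to 8.17 in Fyn-null saline and 7.77 to 7.94 in Fyn-null ethanol, without overlap between treatments. Of the 4 blood markers only 1 was tested, Alas2, which fell by 0.37 (adjusted p = 0.0285). These 5 markers also passed without both pools in doubt. Of 8 neuron, 6 astrocyte, 5 oligodendrocyte, 6 microglia and 1 ependymal markers tested, 0 passed. The part of vessel markers and of RNA quality in the falls of Hspb1, Hsph1 and the other called genes was not tested beyond the covariate fit above.

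**Figure D5:**
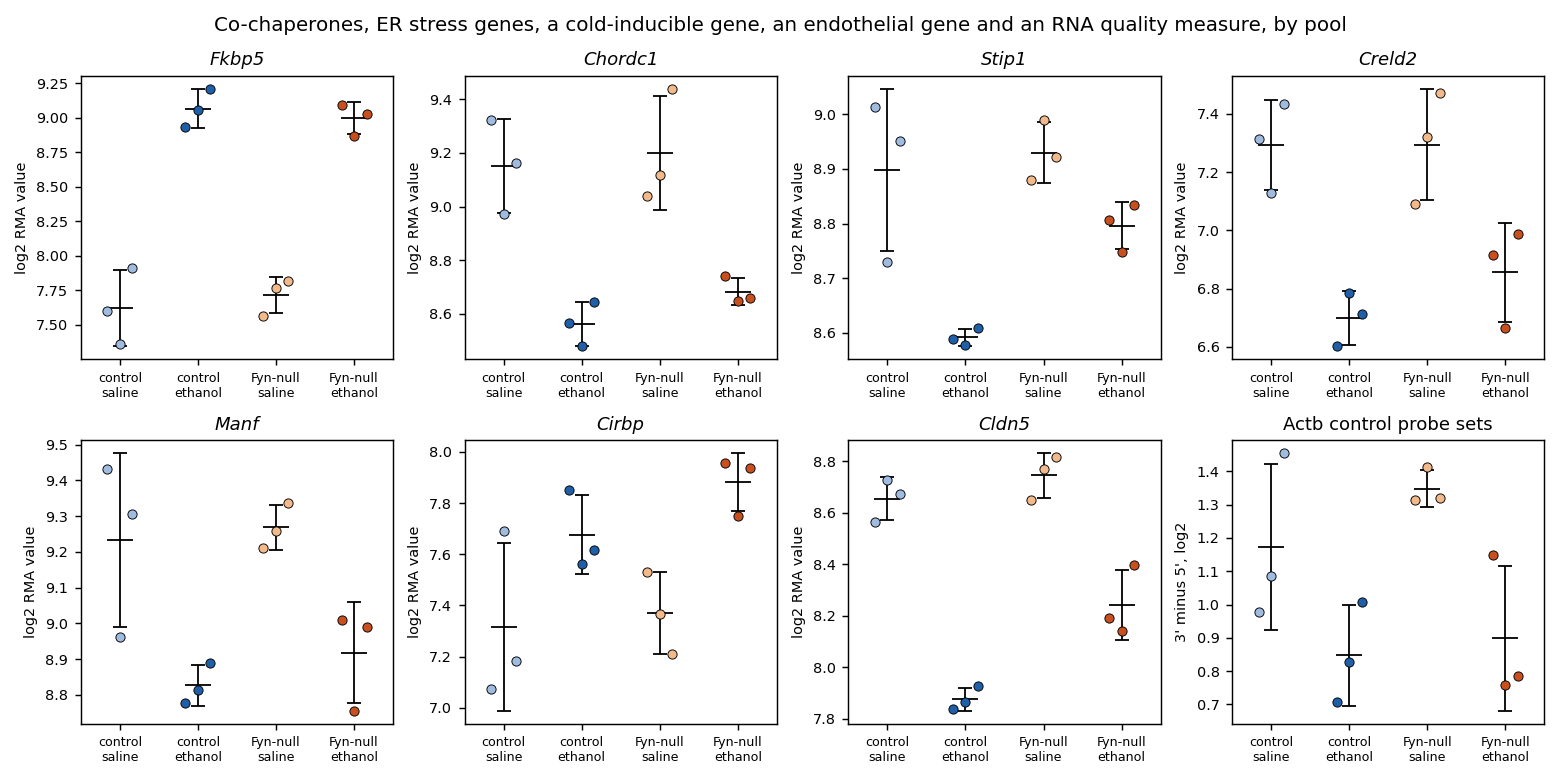
Log2 RMA value of 7 partner or marker genes and the 3′ minus 5′ difference of the Actb control probe sets (vertical axes, which do not start at 0) in each pool of the 4 groups; bars are the group mean and SD (n = 3). Fkbp5 and Cirbp are higher after ethanol on average, and Chordc1, Stip1, Creld2, Manf and the endothelial gene Cldn5 are lower. Single pools of Cirbp, Stip1 and Manf overlap between treatments. The Actb measure overlaps as well (0.706 to 1.15 in ethanol pools and 0.977 to 1.45 in saline pools).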

How the data were processed

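RNA of 12 pools of medial prefrontal cortex was measured on Affymetrix whole-genome mouse arrays. The authors deposited log2 signals per probe set, for which the submitters' processing notes name affy and RMA. Versions are not stated in these sources. The study's methods describe a step for hybridization batches, but not whether the deposited values carry it. Of 45101 probe sets, 64 controls and the 45% of the rest with the lowest mean were left out, leaving 24770. Symbols came from the platform annotation (34945 probe sets with 1 symbol, 932 with several, 9160 with none), and all 70 member genes matched RefSeq by gene ID. Probe sets with several symbols or none were not used as members.

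Tests were two-sided and used lmFit and eBayes of limma 3.58.1 (R 4.3.3), with Benjamini-Hochberg adjustment over all 24770. Means of the 4 groups gave the comparisons within a genotype or treatment and the difference of responses, and additive terms those over both. The linear model takes the place of the study's S-scores, which need probe-level intensities. The script was tested on simulated data.

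Named genes are those called in any of 7 comparisons, the 5 with the smallest p in each, the 5 brightest and 5 dimmest, those whose groups stood apart in both genotypes, called genes whose probe sets disagree in sign, and called genes of the lists (or up to 4 per list). Other members of a role group were named after their values were seen. Gene lists covered heat shock factors and co-chaperones, the CCT chaperonin, the ER, mitochondrial import, cold-inducible genes and 7 sets of cell type markers. Members and lists were chosen with earlier results of these data known. Alternatives were no filter, a 60% filter, a replicate block, further quantile normalization, trend and robust variances, arrayWeights, only the groups compared, the mean of all probe sets, and leaving out each array. The Actb covariate and leaving out both saline pools in doubt were chosen after seeing the data. Precision is limited by the number of pools (median SE 0.108 for 3 against 3 and 0.0764 for 6 against 6).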

Additional observations from a re-analysis of the deposited data

How the results depend on the processing

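Counts are of member genes past the threshold, with the share of all genes called in the same fit in parentheses. For ethanol over both genotypes the count was 7 (6.69%), and 11 with trend and robust variances (7.28%) and 1 with the Actb covariate (0.187%). Leaving out each array gave 5 to 10 (3.24% to 6.92%; 10 without Fyn-null ethanol replicate 1), and the remaining alternatives 6 to 10 (3.03% to 9.78%). The lowest counts, 5 each, came without control ethanol replicate 1, control saline replicate 3 or Fyn-null ethanol replicate 2, and in each of these Hsph1 and Dnajb11 lost their calls (Hsph1 at an adjusted p of 0.0518, 0.0548 and 0.0635). Hsph1 also lost it without control ethanol replicate 2 (0.0537), and Dnajb11 without control ethanol replicate 4, control saline replicate 1 or Fyn-null saline replicate 3 (0.0517, 0.0544 and 0.069). For ethanol in control mice the count was 2 (1.45%), and 1 with no filter (0.649%), with quantile normalization (1.65%) and without both saline pools in doubt (0.641%), 0 in the fit of only the groups compared (0.114%) and with the Actb covariate (0.0974%), and 0 to 2 when each array was left out (0.365% to 1.56%). For ethanol in Fyn-null mice the count was 0 (0.511%), and 1 with the 60% filter (0.855%), with quantile normalization (0.828%) and with trend and robust variances (0.69%), 8 with arrayWeights (10.8%), 2 with the mean of all probe sets (1.27%), and 0 to 1 when each array was left out (0.187% to 0.665%). Fyn-null against control under ethanol went from 0 (0%) to 10 with arrayWeights (15.2%). The other counts of genotype comparisons and of the difference of responses were 0 under every alternative run. Shares of all genes are not given for those fits, so these counts of 0 cannot be read as particular to chaperones. With the mean of all probe sets Hspa4 changed sign, to 0.028 in control mice (adjusted p = 0.913) and 0.0087 over both genotypes (adjusted p = 0.961), because its other probe sets lie on both sides of 0, and Dnajc1 and Dnajc16 lost their calls (-0.067 and 0.14, adjusted p = 0.679 and 0.0674).

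In the fit with a replicate block, the counts were 0 in control mice (0.179% of all genes; Hspb1 at -0.66, adjusted p = 0.0825, and Hspa4 at -0.33, adjusted p = 0.16), 0 in Fyn-null mice (0.154%) and 6 over both genotypes (3.03%), where Dnajb11 lost its call (-0.23, adjusted p = 0.0826). Shared numbers were not taken as pairing the pools. Deviations from the group means correlated above 0.1 in 3 of the 13 same-number pairs (range -0.43 to 0.32), and 2 of 12 arrays correlated best with their own number. The cause of these shifts was not tested. With 3 pools per group, differences near the median SE of 0.108 are not detectable within a genotype.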
